A study of Rattus norvegicus with 12 samples.

Results

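The complement components measured here were 9 genes (C1qa, C1qb, C1qc, C2, C3, C5, Cfb, Cfd and Serping1), found by their names in the array files. They had 10 of the 30367 probes of the array that are not controls, C2 having 2 probes and each other gene 1. Complement is a chain of plasma proteins, each of which activates the next by cleavage or binding. C1q, built of chains from C1qa, C1qb and C1qc, binds antibody, apoptotic cells and microbes and starts the classical pathway, in which C2 supplies the protease of the enzyme that cleaves C3. Factor B (Cfb), once cleaved by factor D (Cfd), supplies the protease of the corresponding enzyme of the alternative pathway. Fragments of C3 mark targets for uptake, and cleavage of C5 opens the terminal pathway. The C1 inhibitor (Serping1) blocks the proteases that C1q activates. Tissue macrophages are a main source of C1q, the liver is the main source of most other components, and adipose tissue is a main source of factor D.

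Colonic tissue was taken from male Wistar rats of 200 to 250 g at day 60, 4 rats per group, and every rat underwent CRD (colorectal distension). Rats of Group C stayed with their mothers and were given placebo. Rats of Group M underwent NMS (neonatal maternal separation, 180 min daily, from day 2 to day 14) with placebo, and rats of Group D underwent NMS and received VSL#3, a mixture of probiotic bacteria. Placebo or VSL#3 was given by gavage in 100 µl saline from day 3 to day 60, and the labels and the paper's methods differ on the dose of VSL#3. Each rat had 1 array of its own, with Cy3 as the only dye. The question was what NMS did to colonic expression (Group M against Group C) and what VSL#3 did in separated rats (Group D against Group M). Values are log2 signals relative to the 75th percentile of the array, so that 0 is the level of that percentile, and levels of different probes are not compared. The 3 groups entered 1 limma model of 11 arrays, and p-values were adjusted over all probes by Benjamini-Hochberg. A probe was called where its adjusted p did not exceed 0.05 and its difference reached 2-fold. Rat 4 of Group D was not in the model, because the paper analysed 11 arrays and shows the first 3 rats of Group D, and its values are given beside the others.

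The 75th percentile of the signal lay between 1434 and 1950 on the 12 arrays, 75.5% to 77.5% of spots were well above background, and 0 spots were saturated. All 10 probes were well above background on all 12 arrays. Groups C and M shared 1 slide and all of Group D was on another, so a difference of Group D cannot be told apart from one of the slide. On the shared slide Group C lay in array row 1 and Group M in array row 2. A difference between Groups M and C therefore cannot be told apart from one of the row. The number of arrays limits the precision, and where nothing says that the rats came from separate litters, the p-values measure the spread between these rats. In bulk tissue, fewer cells of a type and less RNA per cell cannot be told apart. One difference among rats touches several results below. The summed level of 2 B cell markers (Cd79b and Ms4a1) was 1.77 to 5.17 times the 75th percentile in 5 rats and 0.0766 to 0.307 in the other 7. The 5 rats were rat 2 of Group C, rats 1, 3 and 4 of Group M and rat 4 of Group D. Cd79b was well above background on all 12 arrays, while Ms4a1 was so on 8 of 12.

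The probes of C1qa, C1qc, C2 and C3 lie in letters that can be read without a stop, and they are printed because these are the stretches of transcript to which the values below refer. Each is 60 bases in length, 5′ to 3′ in the transcript sense, as the files give it.
C1qa probe: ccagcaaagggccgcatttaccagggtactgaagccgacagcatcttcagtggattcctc
C1qc probe: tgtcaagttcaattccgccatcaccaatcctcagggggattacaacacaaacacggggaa
C2 probe A_64_P222609: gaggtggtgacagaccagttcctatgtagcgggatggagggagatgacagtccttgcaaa
C2 probe A_44_P332606: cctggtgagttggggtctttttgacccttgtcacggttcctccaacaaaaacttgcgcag
C3 probe: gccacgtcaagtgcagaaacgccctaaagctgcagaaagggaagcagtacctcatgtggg
In the rn4 build of the files the probes of C1qb (chr5:155647530-155647589), C1qc (chr5:155656638-155656697) and C1qa (chr5:155662578-155662637) stand side by side on the minus strand. Those of C2 (chr20:4071119-4071178 and chr20:4071504-4071563) and Cfb (chr20:4077743-4077802) do so on the plus strand. The C3 probe (64513437 to 64513496) is on the unplaced sequence chrUn in that build, and RefSeq's GRCr8 places the gene on chromosome 9. The C5 probe (chr3:14011166-14011225) matches C5 by the name in the files alone, through a predicted transcript record, and holds a stop in every reading frame. The probes of Cfd (chr7:11325547-11325604) and Serping1 (chr3:67968812-67968871) and that of C1qb hold the letters AATAAA of a polyadenylation signal near their ends, and that of Cfb holds ATTAAA.

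By limma, 0 of the 10 probes were called in Group M against Group C, where 0.168% of all probes were called. In Group D against Group M the count was 0 of 10 (0.125% of all probes), and in Group D against Group C it was 0 of 10 (0.00659%). The methods' criterion (ANOVA and Tukey's test, both at an unadjusted p up to 0.05, and a 2-fold difference) also passed 0 of 10 in each comparison, beside 2.33%, 2.65% and 0.366% of all probes. At an unadjusted p up to 0.05 by limma, 3 of 10 probes passed in Group M against Group C (C1qb, the C2 probe A_44_P332606 and Serping1), all higher in Group M, beside 9.86% of all probes that passed in that direction. In Group D against Group M 4 of 10 passed (C1qa, C1qb, C1qc and C3), all lower in Group D, beside 9.85% of all probes. In Group D against Group C 2 of 10 passed (C1qa and C1qc), both lower in Group D, beside 2.83% of all probes. The median log2 difference of the 10 probes was 0.27 in Group M against Group C (all probes -0.01), with 8 of 10 above 0. It was -0.39 in Group D against Group M (all probes 0.02), with 1 of 10 above 0, and -0.23 in Group D against Group C (all probes -3e-04), with 4 of 10 above 0. Group M enters the first and the second of these comparisons, so a rat of Group M moves both at once.

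**Figure D1:**
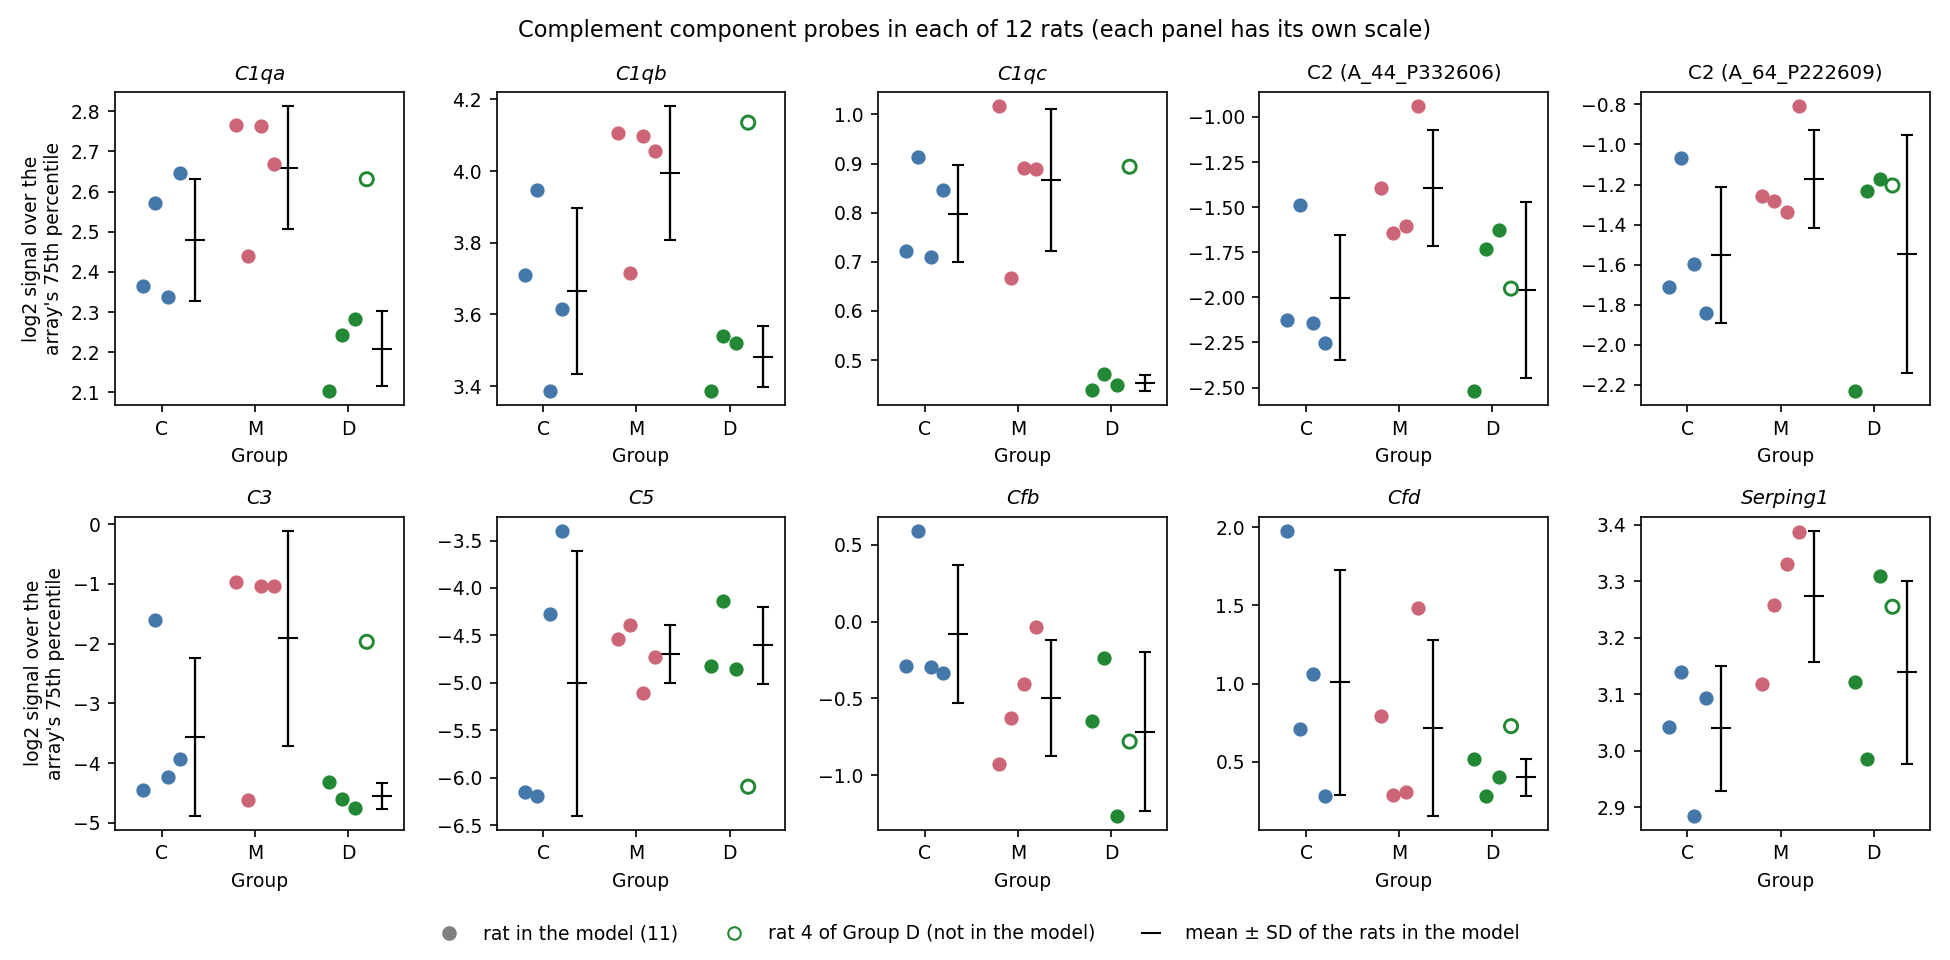
Log2 signal relative to the 75th percentile of the array (vertical axis) of each complement component probe in the rats of Groups C, M and D (horizontal axis), 1 point per rat, with the mean and SD of the 11 rats of the model as bars and rat 4 of Group D as an open circle. C3 stood between -1.97 and -0.97 in 5 rats and between -4.74 and -3.93 in the other 7, and the open circle of C1qa and C1qc lay within the range of Group M and that of C1qb above it.

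All 3 genes of C1q, the recognition molecule of the classical pathway, had lower values in the 3 modelled rats of Group D than in Group M. The direction of the mean was not particular to C1q, as only 1 of the 10 member probes (C5) was higher in Group D than in Group M. C1qa encodes the A chain. Its log2 signal was 2.36, 2.57, 2.34 and 2.65 in rats 1 to 4 of Group C, 2.77, 2.44, 2.76 and 2.67 in Group M, and 2.10, 2.24 and 2.28 in rats 1 to 3 of Group D, with 2.63 in rat 4. Groups C and M overlapped, and the 3 modelled rats of Group D were below every rat of both other groups, while rat 4 of Group D was not. A separation of this kind was seen for 6.89% of all probes in Group D against Group M and for 3.78% in Group D against Group C. Between Groups M and C the log2 difference of C1qa was 0.18 (SE 0.11, adjusted p = 0.367 by limma). In Group D it was lower than in Group M by a log2 difference of -0.45 (SE 0.12, unadjusted p = 0.00362, adjusted p = 0.100 by limma), a fold of 1.37.

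C1qb encodes the B chain. Its log2 signal was 3.71, 3.95, 3.39 and 3.62 in Group C, 4.11, 3.72, 4.10 and 4.06 in Group M, and 3.39, 3.54 and 3.52 in Group D, with 4.14 in rat 4. Rat 2 of Group M stood below the other rats of its group, and rat 4 of Group D had the highest value of all 12 rats. The log2 difference was 0.33 between Groups M and C (SE 0.14, unadjusted p = 0.0353, adjusted p = 0.187 by limma) and -0.51 between Groups D and M (SE 0.15, unadjusted p = 0.00567, adjusted p = 0.110), a fold of 1.43. Against Group C the difference of Group D was -0.18 (95% interval -0.51 to 0.14).

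C1qc encodes the C chain. Its log2 signal was 0.72, 0.91, 0.71 and 0.85 in Group C, 1.02, 0.67, 0.89 and 0.89 in Group M, and 0.44, 0.47 and 0.45 in Group D, with 0.89 in rat 4. The first 3 rats of Group D lay close together and below every rat of Groups C and M. The difference between Groups M and C was 0.07 (95% interval -0.14 to 0.28). Group D differed from Group M by -0.41 (SE 0.10, unadjusted p = 0.0024, adjusted p = 0.0935 by limma) and from Group C by -0.35 (SE 0.10, unadjusted p = 0.00718, adjusted p = 0.661). The 95% intervals of all 3 genes stayed within 2-fold in all 3 comparisons.

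These separations rest on which rats are in the fit. With all 12 arrays the differences between Groups D and M were -0.35 for C1qa (adjusted p = 0.350 by limma), -0.35 for C1qb (adjusted p = 0.458) and -0.30 for C1qc (adjusted p = 0.371), and none of the 3 genes separated the groups. Without rat 2 of Group M they were -0.52, -0.60 and -0.48, with adjusted p = 0.0209, 0.0239 and 0.0165 by limma, each still under 2-fold. The number of all probes called also ranged widely with a rat left out, as given in the last section. Over the 12 rats the log2 signals of C1qa and C1qb correlated at r = 0.868, C1qa and C1qc at 0.934, and C1qb and C1qc at 0.825. Correlations of this size were not particular to C1q. C3 correlated with C1qa at 0.834, with C1qb at 0.897 and with C1qc at 0.828. These are descriptions over 12 arrays that share groups and slides. C1qb was 3.95 to 4.14 in the 5 rats with the high B cell markers and 3.39 to 3.72 in the other 7. C1qc was 0.89 to 1.02 in these 5 rats and 0.44 to 0.85 in the other 7, while C1qa overlapped.

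Macrophage markers were set beside C1q. All 7 listed genes (Csf1r, Cd68, Cd163, Mrc1, Aif1, Cd14 and Adgre1) were well above background in all arrays of some group, 0 of 7 were called by limma in each comparison, and none was at 0. Their summed level was 7.53 to 9.44 times the 75th percentile in Group C, 9.45 to 12.6 in Group M and 8.58 to 11.6 in Group D, where rat 4 had 11.6. At an unadjusted p up to 0.05 by limma, 3 of 7 were higher (Cd68, Cd163 and Cd14) and 1 lower (Adgre1) in Group M than in Group C. Of all probes, 9.86% and 12.9% passed in these directions. In Group D 5 of 7 were lower than in Group M, beside 9.85% of all probes. The log2 difference there was 0.04 for Cd14 and -0.19 for Adgre1, neither of which passed. The median log2 difference of the list was 0.40 in the first of these comparisons and -0.56 in the other. The 4 rats with the highest sums were rats 1, 3 and 4 of Group M and rat 4 of Group D. They were also the 4 highest for C1qb, but not for C1qa or C1qc. For C1qa rat 4 of Group C (2.65) stood above rat 4 of Group D (2.63). For C1qc rat 2 of Group C (0.91) stood above rats 3 and 4 of Group M and rat 4 of Group D (0.89 each). The part of macrophage number or activity in the values of C1q was not tested. Among 11773 genes well above background, those whose pattern over the 12 arrays was most like C1qa were Csf2ra, a chain of a myeloid growth factor receptor (r = 0.964), and Aif1, a macrophage protein (r = 0.940). For C1qb the 5 genes most alike (r from 0.968 to 0.96) were Dus2l, Ralgps2, Prpf4, Cd68, a lysosomal protein of macrophages, and Fcgr2b, an inhibitory antibody receptor. For C1qc, C1qa stood first (r = 0.934).

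C2 is the protease of the classical C3 convertase, and its 2 probes ran in parallel. With probe A_64_P222609, the brighter, the log2 signal was -1.71, -1.07, -1.59 and -1.84 in Group C, -1.25, -1.28, -1.34 and -0.81 in Group M, and -2.23, -1.23 and -1.17 in Group D, with -1.20 in rat 4. With probe A_44_P332606 it was -2.13, -1.49, -2.14 and -2.25 in Group C, -1.39, -1.64, -1.60 and -0.94 in Group M, and -2.52, -1.73 and -1.63 in Group D, with -1.95 in rat 4. With both probes rat 2 was the highest of Group C, rat 4 the highest of Group M and rat 1 the lowest of Group D, and the groups overlapped. The difference between Groups M and C was 0.38 (SE 0.26, adjusted p = 0.407 by limma) with the first probe and 0.61 (SE 0.25, unadjusted p = 0.0335, adjusted p = 0.183) with the other. Between Groups D and M it was -0.38 (95% interval -0.99 to 0.24) and -0.56 (95% interval -1.16 to 0.03). Between Groups D and C it was 0.01 and 0.04, with intervals from -0.61 to 0.62 and from -0.55 to 0.64.

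C3, the component on which the pathways meet, had the widest spread of the 9 genes between the rats of Group M. Its log2 signal was -4.46, -1.60, -4.23 and -3.93 in Group C, -0.97, -4.62, -1.03 and -1.04 in Group M, and -4.31, -4.60 and -4.74 in Group D, with -1.97 in rat 4. The 12 rats fell into 5 with values from -1.97 to -0.97 and 7 with values from -4.74 to -3.93, and each group held rats of both kinds. The groups overlapped in all 3 comparisons. Group M was higher than Group C by 1.64 on the log2 scale (SE 0.87, 95% interval -0.28 to 3.57, adjusted p = 0.289 by limma), a fold of 3.12. Group D differed from Group M by -2.64 (SE 0.94, 95% interval -4.72 to -0.56, unadjusted p = 0.018, adjusted p = 0.153), a fold of 6.22, and from Group C by -0.996 (95% interval -3.08 to 1.09).

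A single rat decides the call of C3. Without rat 2 of Group M, the difference between Groups M and C was 2.54 (adjusted p = 0.0234 by limma) and that between Groups D and M was -3.54 (adjusted p = 0.0127), and both were called. Weights for the quality of the arrays gave 2.63 (adjusted p = 0.0119 by limma) and -3.32 (adjusted p = 0.00961), both called. Under these weights 2062 and 2060 of all 30367 probes were called, beside 51 and 38 in the main fit. A call under the weights is therefore not particular to C3. The ranges of these counts with each rat left out are given in the last section. They are wide, so the calls of C3 without rat 2 of Group M may not be particular to C3 either. With all 12 arrays the difference between Groups D and M was -1.99 (adjusted p = 0.435). Without rat 2 of Group C the difference between Groups M and C was 2.29 (adjusted p = 0.120).

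The 5 rats in which C3 was high were the 5 rats with the high B cell markers named above. The summed level of 4 T cell markers (Cd3e, Cd3d, Cd3g and Cd2) was 2.72 to 8.69 times the 75th percentile in these 5 rats and 0.518 to 1.05 in the other 7. All 4 T cell markers and both B cell markers were higher in each of the 5 rats than in each of the 7. The share of all probes that split these rats alike was not determined, so whether such counts are unusual cannot be told. The sum of 5 neutrophil markers was 0.353 to 3.61 against 0.110 to 0.166, and of these S100a8 and S100a9 separated the rats, while Mpo, Ngp and Csf3r overlapped, Ngp being well above background on 1 and Csf3r on 3 of 12 arrays. Summed macrophage markers ranged from 9.16 to 12.6 in the 5 rats and from 7.53 to 9.79 in the 7, where Cd68 separated the rats and the other 6 genes overlapped. Of 6 epithelial markers, 2 were lower in each of the 5 rats than in each of the 7, namely Car1, a carbonic anhydrase of the colonic epithelium (log2 signal -0.33 to 0.76 against 1.19 to 2.40), and Vil1, or villin of the brush border (0.91 to 1.27 against 1.60 to 2.31), and the other 4 overlapped. All genes of the smooth muscle, fibroblast, mesothelial, endothelial, adipocyte and erythrocyte lists overlapped. The same 5 rats had the high values of Cr2, the receptor for C3 fragments on B cells and follicular dendritic cells (log2 signal -1.73 to -0.55 against -8.75 to -5.38), of Clu, the complement inhibitor clusterin (2.96 to 3.73 against 0.80 to 1.28), and of Itgb2, the beta chain of complement receptor 3 (-1.12 to -0.18 against -3.40 to -2.97). Itgam, the alpha chain of complement receptor 3, overlapped between the 5 and the 7 rats (-1.79 to -0.86 against -2.39 to -1.45). Cr2 was not well above background on most of the arrays where it was low, and Cr2, Clu and Itgb2 are named here after their values were seen. The widest gap in C3, in the B and T cell sums, and in Cr2, Clu and Itgb2 split the rats alike. The single markers, the other sums and further genes were compared between the 5 and the 7 rats as split by C3. Of the other members, C1qb and C1qc were higher in each of the 5 rats than in each of the 7, and the rest overlapped. Of the genes named below, C1r, C1s, Fcnb, C5ar1, C5ar2 and Cd93 were higher in the same way. C3ar1, C7, Colec10, Cd55, Cd59, Cd46 and Vtn overlapped. These are descriptions with no test, and the part of lymphoid or epithelial tissue in the differences of C3, C1qb and C1qc was not tested. The genes whose pattern was most like C3 over the 12 arrays were Chi3l1 (r = 0.976), Lyz2, a lysozyme of myeloid cells (r = 0.973), Lst1, Lsp1 and Psat1.

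**Figure D2:**
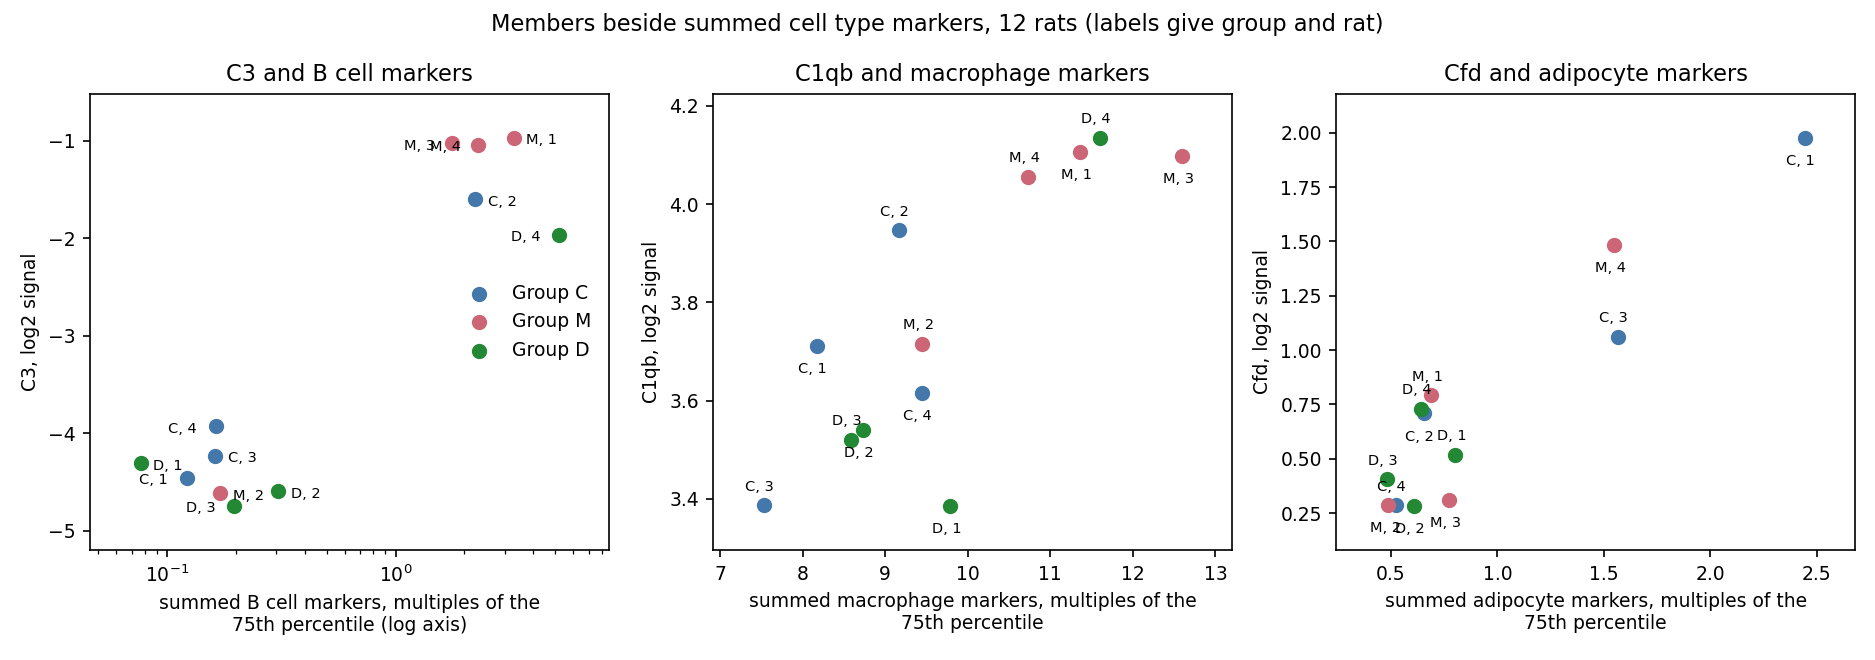
Log2 signal of C3, C1qb and Cfd (vertical axes, relative to the 75th percentile of the array) against the summed level of B cell, macrophage and adipocyte markers (horizontal axes, multiples of the 75th percentile, the first on a log axis), 1 labelled point for each of 12 rats. The 5 rats with B cell sums of 1.77 to 5.17 were the 5 with C3 at -1.97 or more, and the 3 rats with the highest adipocyte sums had the 3 highest values of Cfd.

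C5, from which the first step of the terminal pathway is cut, was measured by a probe with 10 spots. Its log2 signal was -6.15, -6.20, -4.28 and -3.40 in Group C, -4.54, -4.40, -5.11 and -4.73 in Group M, and -4.83, -4.13 and -4.86 in Group D, with -6.10 in rat 4. Values of Groups M and D lay inside the range of Group C. The difference was 0.31 between Groups M and C (95% interval -0.96 to 1.58), 0.09 between Groups D and M (-1.28 to 1.45) and 0.40 between Groups D and C (-0.97 to 1.77). A level 2-fold higher in the first group lay inside the interval of all 3 comparisons, and a level 2-fold lower lay inside that of Groups D and M alone.

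Factor B, the protease of the alternative convertase, had a log2 signal of -0.29, 0.59, -0.30 and -0.33 in Group C, -0.93, -0.63, -0.41 and -0.03 in Group M, and -0.65, -0.24 and -1.26 in Group D, with -0.78 in rat 4. Rat 2 of Group C stood apart above the others. Cfb differed by -0.42 between Groups M and C (95% interval -1.05 to 0.22, adjusted p = 0.419 by limma), by -0.22 between Groups D and M (-0.90 to 0.47) and by -0.63 between Groups D and C (-1.32 to 0.05, unadjusted p = 0.0666). C2 and Cfb are neighbours on the chromosome, and in Group M against Group C the C2 probes stood above 0 and the Cfb probe below. The gene most like Cfb over the 12 arrays was Msln, a marker of mesothelium (r = 0.883), followed by Yif1b, Dcn, a proteoglycan of fibroblasts, Upk1b and Olr472.

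Factor D cleaves factor B. Its log2 signal was 1.98, 0.71, 1.06 and 0.29 in Group C, 0.79, 0.29, 0.31 and 1.48 in Group M, and 0.52, 0.28 and 0.41 in Group D, with 0.73 in rat 4. Rats of one group differed by more than the groups did, and the difference was -0.29 between Groups M and C (95% interval -1.09 to 0.51), -0.32 between Groups D and M (-1.18 to 0.55) and -0.61 between Groups D and C (-1.47 to 0.26). The summed level of the 5 measured adipocyte markers of 6 listed was 2.44, 0.656, 1.57 and 0.524 times the 75th percentile in rats 1 to 4 of Group C, 0.689, 0.488, 0.773 and 1.55 in Group M, and 0.803, 0.607, 0.480 and 0.640 in Group D. The 3 rats with the highest sums (rats 1 and 3 of Group C and rat 4 of Group M) had the 3 highest values of Cfd, and Adipoq, the defining marker, was well above background on all 12 arrays. The part of adipose tissue in the values of Cfd was not tested. Among the genes most like Cfd were Fabp4, the fatty acid carrier of adipocytes (r = 0.874), and Lpl, the lipoprotein lipase (r = 0.829), after Nat8l (r = 0.888), and also Agt and Thrsp.

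Serping1, the inhibitor of C1r, C1s and the lectin pathway proteases, had a log2 signal of 3.04, 3.14, 2.89 and 3.09 in Group C, of 3.12, 3.26, 3.33 and 3.39 in Group M, and 3.12, 2.99 and 3.31 in Group D, with 3.26 in rat 4. The lowest rat of Group M lay below the highest of Group C. Group M was higher than Group C by 0.23 (SE 0.10, unadjusted p = 0.049, adjusted p = 0.218 by limma), a fold of 1.18, and Group D differed from Group M by -0.13 (95% interval -0.39 to 0.12) and from Group C by 0.10 (-0.15 to 0.35). Its interval stayed within 2-fold in all 3 comparisons.

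**Figure D3:**
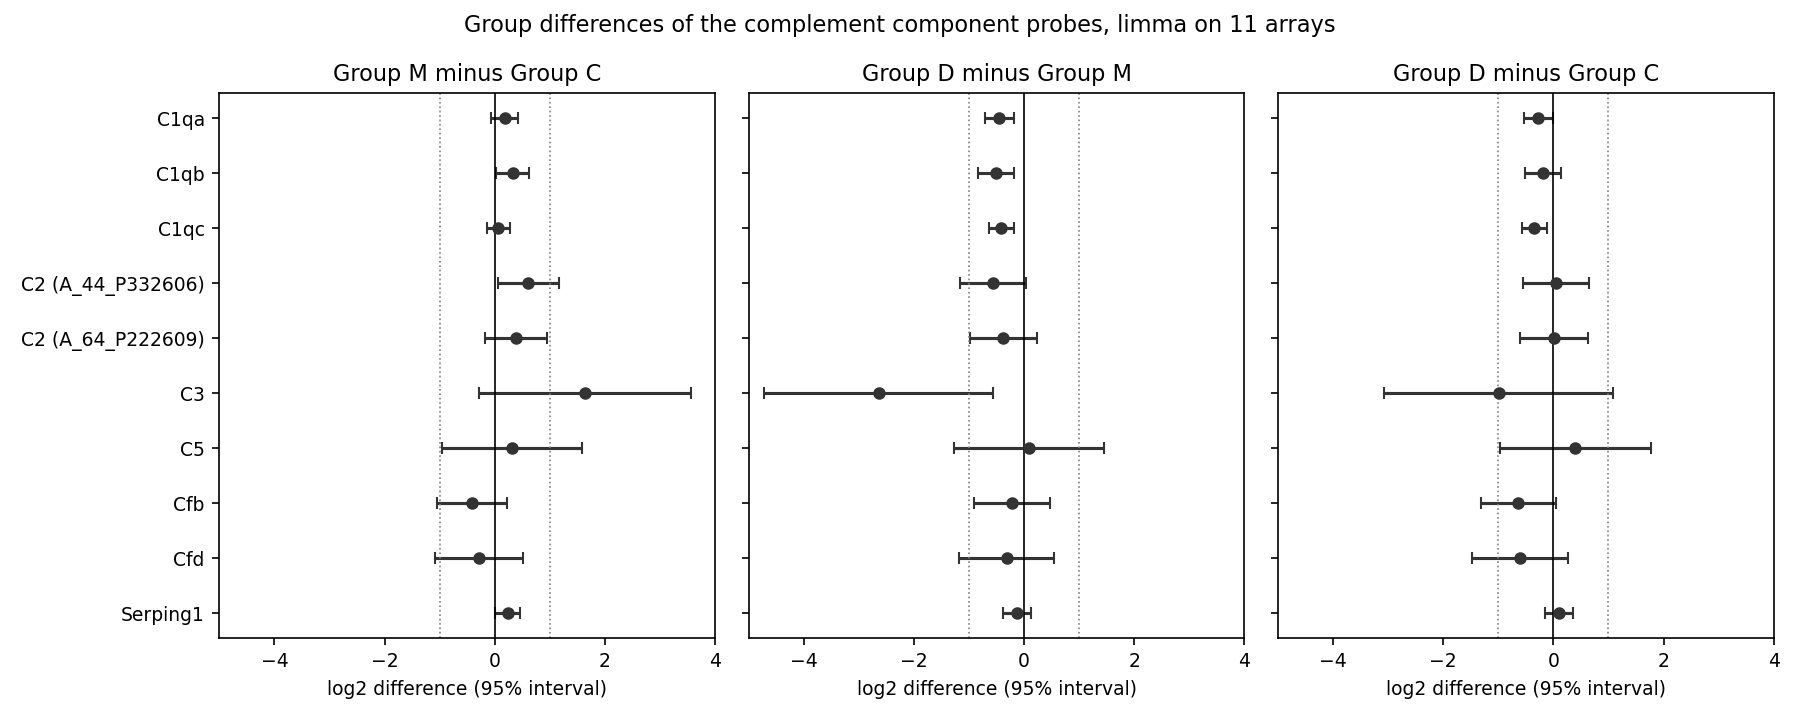
Log2 differences of the 10 probes (horizontal axis, limma on 11 arrays, points with 95% intervals) in the 3 comparisons, with dotted lines at a 2-fold difference. The intervals of C1qa, C1qb, C1qc and Serping1 stayed between the dotted lines in every panel, while those of C3 ran from -0.28 to 3.57, from -4.72 to -0.56 and from -3.08 to 1.09.

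The other genes of complement were described by a list of 40, of which 37 were measured by a probe of their own and 24 were well above background in all arrays of some group. By limma 0 of 37 were called in each comparison. At an unadjusted p up to 0.05, 7 were higher and 3 lower in Group M than in Group C, beside 9.86% and 12.9% of all probes. In Group D, 2 were higher and 10 lower than in Group M, beside 11.8% and 9.85% of all probes, and 0 were higher and 1 lower than in Group C, beside 3.15% and 2.83%. The median log2 difference of the list was 0.10, -0.30 and -0.13. The methods' criterion passed 1 gene in Group M against Group C (Colec10, lower) and 4 in Group D against Group M (Colec10 higher, and Fcnb, C5ar1 and C5ar2 lower), and 0 in Group D against Group C. Colec10 was well above background on 0 of 4 arrays of Group M and C5ar2 on 1 of the 3 modelled arrays of Group D, so their levels there are bounds.

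Receptors for the cleavage fragments were among the named genes. C3ar1, the receptor for C3a, had a log2 signal of -4.81, -4.80, -4.87 and -5.27 in Group C, -4.40, -4.46, -3.93 and -4.01 in Group M, and -5.25, -4.75 and -5.40 in Group D, with -4.43 in rat 4. Every rat of Group M lay above every rat of Group C, as for 4.08% of all probes, and above the first 3 rats of Group D. The difference was 0.74 between Groups M and C (adjusted p = 0.0997 by limma) and -0.93 between Groups D and M (adjusted p = 0.0808). C5ar1, the receptor for C5a, was at -2.69, -2.31, -2.84 and -2.87 in Group C, -2.03, -2.65, -1.30 and -1.97 in Group M and -2.89, -2.95 and -3.18 in Group D, with -2.39 in rat 4. Its difference was 0.69 between Groups M and C and -1.02 between Groups D and M (adjusted p = 0.0995). Cd93, a receptor once held to bind C1q, differed by 0.45 and by -0.52.

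Of the recognition molecules, Fcnb, a ficolin of myeloid cells that starts the lectin pathway, was at -3.09, -1.99, -2.93 and -2.89 in Group C, -0.62, -2.88, 0.25 and -0.96 in Group M and -3.45, -3.10 and -3.54 in Group D, with -2.84 in rat 4. It differed by 1.67 between Groups M and C and by -2.31 between Groups D and M (adjusted p = 0.0979 by limma). As with C3, rat 2 was the lowest of Group M, and for Fcnb it lay within the range of Group C.

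The regulators did not point one way. Cd55, which speeds the decay of the convertases, differed by 1.12 between Groups M and C (unadjusted p = 0.041, adjusted p = 0.200 by limma). It was above every rat of Group C in every rat of Group M, as for 4.08% of all probes. Rat 3 of Group M had 2.88 and rats 1, 2 and 4 had 0.22, 0.39 and 1.13. Every rat of Group D, rat 4 included, also lay above every rat of Group C (0.21 to 1.36 against at most 0.14). Cd59, which blocks the terminal complex, differed by 0.57 in the same comparison. Cd46, a cofactor for the cleavage of C3b, differed by -0.74, and Vtn, or vitronectin, which binds the terminal complex, by -0.66. Vtn was higher in Group D than in Group M by 0.99 (adjusted p = 0.0744), with every modelled rat of Group D above every rat of Group M, as for 9.07% of all probes, while rat 4 of Group D was at -3.92. In Group D against Group C, C7 of the terminal complex differed by -0.40 (SE 0.17, unadjusted p = 0.0431, adjusted p = 0.823) and is named as the 1 gene that passed the unadjusted threshold there. C1r and C1s, the proteases of the C1 complex, are named for that role. C1s differed by 0.40 between Groups M and C and C1r by 0.24, and they differed by -0.46 and -0.30 between Groups D and M.

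**Figure D4:**
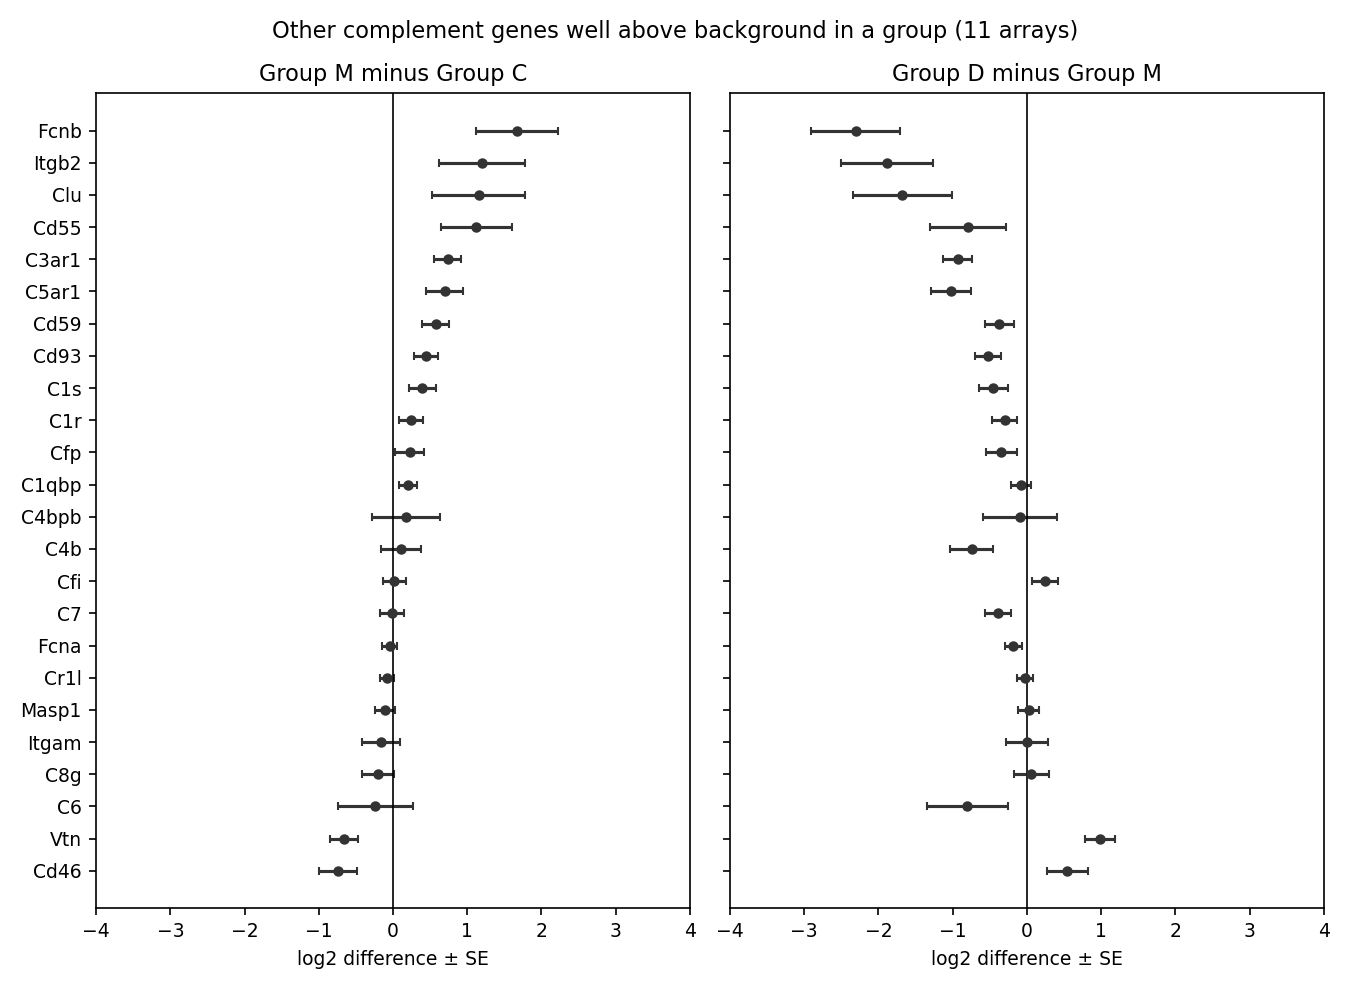
Log2 difference with its SE (horizontal axis) of the 24 other complement genes well above background in a group (vertical axis, ordered by the first panel), in Group M minus Group C and Group D minus Group M, from limma on 11 arrays. Group M enters both panels with opposite sign, and 0 of the differences were called.

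RefSeq's table of promoters holds 5 of the 9 genes (C1qa, C1qb, C3, C5 and Cfd). The 250 bases before the start of C1qa, C1qb and C3 in the GRCr8 build are printed because C1q and C3 carry the differences described above. Motifs were searched on both strands as NF-kB, C/EBP (TTNNGNAA), STAT (TTCNNNGAA), PU.1 (GAGGAA) and the plain letters TATAAA, and matches are in capitals.
C1qa (chr5:154419934-154420183, minus strand): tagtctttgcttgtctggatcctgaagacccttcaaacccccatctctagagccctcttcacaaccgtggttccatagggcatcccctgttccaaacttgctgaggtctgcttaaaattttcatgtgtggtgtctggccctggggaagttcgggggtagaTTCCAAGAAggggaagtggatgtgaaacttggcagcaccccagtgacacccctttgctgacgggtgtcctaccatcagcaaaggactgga
C1qb (chr5:154407828-154408077, minus strand): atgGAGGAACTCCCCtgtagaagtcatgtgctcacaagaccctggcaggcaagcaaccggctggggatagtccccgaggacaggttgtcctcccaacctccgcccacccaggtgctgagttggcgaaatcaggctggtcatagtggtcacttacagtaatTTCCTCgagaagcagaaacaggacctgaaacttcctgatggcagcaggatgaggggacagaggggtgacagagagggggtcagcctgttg
C3 (chr9:2201340-2201589, minus strand): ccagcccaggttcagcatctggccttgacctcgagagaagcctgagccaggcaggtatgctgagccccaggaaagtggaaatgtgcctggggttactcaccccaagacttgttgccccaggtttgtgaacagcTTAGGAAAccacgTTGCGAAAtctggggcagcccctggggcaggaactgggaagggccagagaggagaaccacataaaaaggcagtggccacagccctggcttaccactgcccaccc
In C1qa the letters of STAT began 90 bases before the start, a motif that 7.67% of all 33465 promoters held in windows of the same length. In C1qb there were matches of NF-kB, held by 6.33% of promoters, and of PU.1, held by 23.3%, which overlapped at 245 and 247 bases before the start, and another of PU.1 at 90 bases. In C3 the letters of C/EBP were found 117 and 104 bases before the start, the second reading as a match on both strands, and 37.2% of all promoters held this motif. The letters TATAAA, held by 12.9% of promoters, were not found in these 3 windows. A match is a description of the letters alone.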

How the data were processed

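Colon RNA of 12 rats was measured on 12 Agilent arrays of 1 colour. Per the file headers, the scanner software (Agilent Feature Extraction 10.5.1.1) had subtracted the background from the deposited intensities, which were not normalized between arrays. The authors' matrix of log2 values, quantile normalized, was an alternative. Here, control and outlier spots were left out, the spots of a probe were averaged, and the log2 of the 75th percentile of each array was subtracted. Limma 3.58.1 (R 4.3.3, with version 1.17.8 of data.table) compared the 3 groups in 1 model on 11 arrays, as the paper's methods use 11 arrays. The procedure was tested on simulated data. A marker list's summed level is the sum of linear levels, 1 probe per gene (highest mean signal). Groups came from the labels.

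The members and the lists were chosen with earlier results of these data known. Genes named are the members, the 8 other complement genes with the smallest unadjusted p in Group M against Group C among those well above background in all arrays of some group, any called, and the 5 genes most like each member by Pearson's r. Outside this rule, C1r and C1s are named for their role, Colec10, C5ar2 and C7 because they passed a weaker threshold, and Cr2, Clu and Itgb2 after their values were seen. Itgam is named as the partner chain of Itgb2. Some probes' sequences are not printed, and some results are left out of this text, with the lists and their sums computed without them. Alternatives were all 12 arrays, other background correction, normalization, filters, tests, weights, the replicate number as a block, and each rat left out. The replicate numbers do not pair the rats.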

Additional observations from a re-analysis of the deposited data

Results flagged for a closer look

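Of 30 groups of 4 rats (10 probes, 3 groups), 8 held a rat far from the others by Dixon's criterion, which chance gives for about 1 group in 20. Of these, 2 concern C3. Rat 2 of Group M had a log2 signal of -4.62, while the nearest rat of its group had -1.04. Rat 4 of Group D had -1.97, and the nearest had -4.31. For C1qb, rat 2 of Group M had 3.72 and the nearest rat 4.06. For C1qc, rat 4 of Group D had 0.89 and the nearest 0.47. For the C2 probe A_64_P222609, rat 4 of Group M had -0.81 (nearest -1.25) and rat 1 of Group D had -2.23 (nearest -1.23). For the C2 probe A_44_P332606, rat 2 of Group C had -1.49 (nearest -2.13), and the same rat had 0.59 for Cfb (nearest -0.29).

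Rat 4 of Group D, which is outside the model, had values above all 4 rats of Group C in 2 genes. C1qb was 4.14 in this rat, where the highest rat of Group C had 3.95, and Serping1 was 3.26, where the highest had 3.14.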

How the results depend on the processing

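Of 240 values of the member probes under other settings in each comparison, 232, 230 and 228 (Group M against Group C, Group D against Group M, Group D against Group C) kept their direction and their side of the threshold, 5, 6 and 2 passed it in addition, and 3, 4 and 10 changed sign. The changes of sign concern small differences. C5 in Group D against Group M became -0.285 with all 12 arrays, and the C2 probe A_64_P222609 in Group D against Group C became -2e-04 with outlier spots kept. With each rat left out in turn, the range was -0.18 to 0.35 for this C2 probe and -0.12 to 0.32 for A_44_P332606 in Group D against Group C. It was -0.15 to 0.21 for C5 and -0.456 to 0.0561 for Cfb in Group D against Group M, and -0.0871 to 0.847 for C5 and -0.545 to 0.0336 for Cfd in Group M against Group C. The cause was not tested.

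The count of member probes called, 0 in each comparison, became 1, 1 and 0 with array weights (C3) and 3, 4 and 2 at an unadjusted p with no condition on the fold. With each rat left out it was 0 to 1 in Group M against Group C and 0 to 1 in Group D against Group M, where C3 without rat 2 of Group M gave the 1. Over all probes, the counts 51, 38 and 2 became 10, 4 and 2 with all 12 arrays, 62, 88 and 2 with normexp, 42, 38 and 0 with quantile normalization, 28, 42 and 4 with the authors' matrix, 76, 160 and 2 with a filter on dim probes, 2062, 2060 and 7 with array weights, 23, 12 and 0 with 2 groups in the model, 707, 805 and 111 by the methods' criterion, and 6898, 6567 and 1816 at an unadjusted p. With each rat left out they ran from 4 to 1778, from 1 to 1978 and from 0 to 12. A shift to the array median moved the median of all probes in Group D against Group M to 0.11.

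With the replicate number as a block, 1, 1 and 0 probes were called over all probes and 0 member probes in each comparison, so the block changed no call of a member. The difference of C3 between Groups M and C was 1.64 under the block. The labels give the groups the same numbers without saying that they pair rats, and the correlations of same-numbered rats ran from -0.559 to 0.384, so the rats were not paired.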
